A study of Homo sapiens with 2 samples.

Results

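The mevalonate pathway enzymes are the genes of the route that turns acetyl-CoA into isoprenoids and, through squalene, into sterols. The 9 genes followed here, of 60616 genes listed in the expression table, were chosen by their place in that route, with earlier results of these data known: ACAT2, HMGCS1, MVK, PMVK, MVD, IDI1, FDPS, GGPS1 and FDFT1. They do not hold every enzyme of the route. All 9 were detected in both libraries.

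RNA sequencing compared HSC-3 cells, an established line from a squamous cell carcinoma of the tongue, under vehicle (DMSO at 0.1%) and under the ferroptosis inducer FIN56 at 1 µM for 48 h, to ask how gene expression differs under ferroptotic stress. The labels give the time for FIN56 only. Both cultures were kept in DMEM with 5% FBS and antibiotics, and poly(A) RNA was sequenced with a strand-marking kit. There was 1 library per condition, so every difference below compares 2 libraries, carries no test or p-value, and a treatment effect and the spread between cultures cannot be told apart.

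In the mevalonate pathway a pair of acetyl-CoA molecules is joined and extended to HMG-CoA, reduced to mevalonate, phosphorylated and decarboxylated to isopentenyl diphosphate, the building block of all isoprenoids. Farnesyl diphosphate, made from it, is the branch point between squalene and sterols on one side and prenylated proteins, dolichol, heme A and coenzyme Q on the other. The enzyme genes are classical targets of SREBP transcription factors, which are held back when membrane sterol is plentiful. FIN56 lowers GPX4, the enzyme that reduces lipid peroxides, and has also been described as a binder and activator of squalene synthase, the product of FDFT1.

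The start regions of 4 of these genes are shown: HMGCS1 makes HMG-CoA and is the gene whose FPKM and count ratios differ the most, MVK and MVD are among the lowest ratios, and PMVK, which acts between those kinase and decarboxylase steps, is the one gene with a higher level under FIN56. Each sequence is the 250 bases before the canonical start site, read 5′ to 3′ on the gene's strand, from the RefSeq table of build GRCh38.p14. The spans are chr5:43313413-43313662 on the minus strand for HMGCS1, chr12:109573544-109573793 on the plus strand for MVK, chr1:154936720-154936969 on the minus strand for PMVK and chr16:88663092-88663341 on the minus strand for MVD. Capitals mark CCAAT, the core of NF-Y sites, or GGGCGG, the core of Sp1 sites, and their reverse complements on the other strand.
HMGCS1: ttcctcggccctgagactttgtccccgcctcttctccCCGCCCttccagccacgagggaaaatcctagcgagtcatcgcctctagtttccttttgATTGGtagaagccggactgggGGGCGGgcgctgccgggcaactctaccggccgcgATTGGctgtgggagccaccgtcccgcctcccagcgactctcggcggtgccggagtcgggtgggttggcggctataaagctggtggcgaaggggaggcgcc
MVK: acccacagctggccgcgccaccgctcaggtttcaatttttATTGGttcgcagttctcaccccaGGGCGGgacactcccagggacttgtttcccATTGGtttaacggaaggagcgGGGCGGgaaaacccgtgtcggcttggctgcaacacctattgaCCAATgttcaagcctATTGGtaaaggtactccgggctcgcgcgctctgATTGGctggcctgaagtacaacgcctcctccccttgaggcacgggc
PMVK: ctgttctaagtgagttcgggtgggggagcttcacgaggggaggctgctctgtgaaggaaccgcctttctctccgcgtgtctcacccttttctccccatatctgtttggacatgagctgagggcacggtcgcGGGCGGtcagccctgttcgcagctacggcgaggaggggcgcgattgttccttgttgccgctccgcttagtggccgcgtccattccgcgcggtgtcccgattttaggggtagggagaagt
MVD: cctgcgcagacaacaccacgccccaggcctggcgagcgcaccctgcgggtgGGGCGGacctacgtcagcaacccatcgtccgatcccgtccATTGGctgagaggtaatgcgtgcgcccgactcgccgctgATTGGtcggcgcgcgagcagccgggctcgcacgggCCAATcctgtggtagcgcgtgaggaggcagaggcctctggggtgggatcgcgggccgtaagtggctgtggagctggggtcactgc

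A start window of 250 bases before and 50 bases after the canonical start was examined for 7 of the 9 genes. The motifs were searched on both strands of it. FDFT1 was left out of the search whether or not it had a window, and ACAT2 had no full window. CCAAT was found in 6 of the 7, against 34.6% of the 35116 windows in the table, and at least 2 matches were found in 5 of the 7, against 10.8%. These sets are unlike, since 1 canonical window was counted per enzyme and the table also holds alternative starts. MVK held 5 matches, MVD and FDPS 3 each, HMGCS1 and IDI1 2 each and GGPS1 1. The PMVK window held none. GGGCGG was found in all 7 windows (45.0% of the table), and CACNCCAC, a sterol element form, in none of them (5.87% of the table). A second IDI1 window, whose start lies 233 bases away, held 1 match to CACNCCAC and 3 to CCAAT. The remaining alternative windows, HMGCS1 window 2, IDI1 window 3 and GGPS1 windows 2 and 3, held 0 matches to CCAAT. These matches describe letters in the reference and say nothing about binding in HSC-3 cells.

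**Figure D1:**
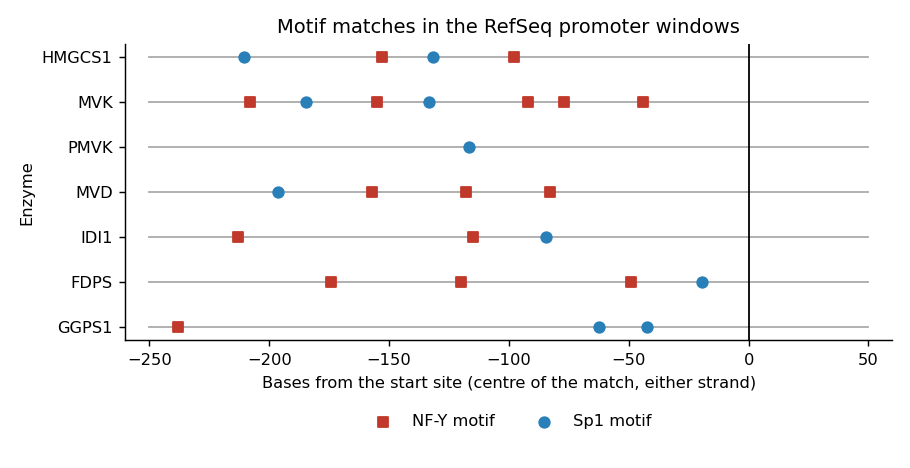
Matches to the NF-Y core (squares) and the Sp1 core (circles), on either strand, in the start windows of the 7 genes examined, plotted by distance from the canonical start site in bases. MVK has 5 matches to CCAAT and PMVK has 0.

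The cell label was checked against marker genes. All 8 squamous epithelial markers examined, among them KRT5, KRT17 and ITGB4, were present at 43.84 to 2078.49 FPKM. FPKM is fragments scaled by transcript length and by library depth. By FPKM, 0 of the 8 differed by 1.5-fold or more. Of the genes of at least 1 FPKM in both libraries, 6.77% were lower and 3.87% higher by that much. On counts scaled by library totals ITGB4 was past the threshold, at a FIN56 over DMSO ratio of 0.651. Of 8 markers of other cell types, PTPRC and CD3E were listed at 0 in both libraries and CD79A, PECAM1 and COL3A1 had at most 2 counts, while MLANA was at 0.42 and 0.30 FPKM. CD68, a macrophage marker that other cells with lysosomes also express, was at 57.27 FPKM under DMSO and 24.58 FPKM under FIN56, and COL1A1 was at 4.25 and 2.19 FPKM. The summed level of these 8 was 61.97 and 27.1 FPKM, and their part in the results was not tested. The libraries held 70184516.58 and 73062208.72 expected counts, of which 4.768% and 5.754% were mitochondrial. In bulk RNA, fewer expressing cells and less RNA per cell cannot be told apart.

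Across the route, the FIN56 library had lower FPKM for 8 of the 9 enzymes and higher FPKM for PMVK alone. The median FIN56 over DMSO ratio of the 9 was 0.676, a log2 ratio of -0.57, whereas the median log2 ratio of the 12638 genes of at least 1 FPKM in both libraries was 0.03. Among those genes 46.1% had a ratio below 1. The summed level of the 9, in transcripts per length scaled to a fixed library total (TPM), was 580.73 with DMSO and 416.73 with FIN56, a ratio of 0.718.

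The enzymes differed in the size of the difference. At the threshold of 1.5-fold, 4 of the 9 were lower (ACAT2, MVK, MVD and IDI1) and 0 were higher. The same thresholds took 17.3% (lower) and 14.7% (higher) of the 24454 genes above 0 FPKM in both libraries, and 6.77% and 3.87% of the genes of at least 1 FPKM. Nearest the lower threshold, ACAT2 at 0.652 lay inside it and HMGCS1 at 0.676 outside, and PMVK at 1.41 was the closest to the upper threshold.

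**Figure D2:**
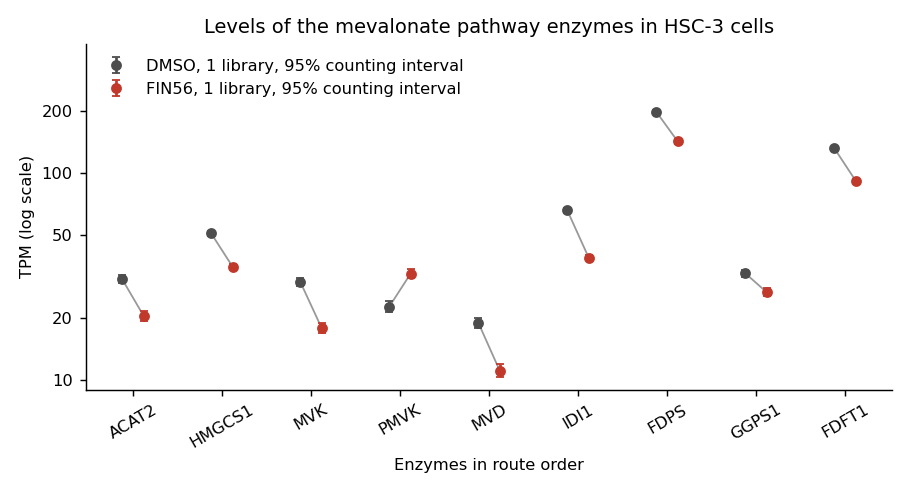
TPM (log axis) of the 9 enzymes in route order in the DMSO and FIN56 libraries, with exact 95% counting intervals. The FIN56 point lies below the DMSO point for 8 enzymes and above it for PMVK.

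The first steps build HMG-CoA. ACAT2, the cytosolic thiolase that joins acetyl-CoA units into acetoacetyl-CoA (chromosome 6, 159762045 to 159779112, plus strand), was at 20.52 FPKM under DMSO and 13.38 FPKM under FIN56. The FIN56 library was the lower one, at a ratio of 0.652. On counts scaled by library totals the ratio was also 0.652, with an exact 95% interval of 0.609 to 0.699. This interval, like all intervals here, covers counting error only, because it rests on the counts of 1 library per condition. No molecular identifiers tell copies of 1 molecule apart, so it may be too narrow even for that. HMGCS1, the cytosolic HMG-CoA synthase (chromosome 5, 43287470 to 43313512, minus strand), was at 34.15 and 23.08 FPKM. Its FPKM ratio was 0.676, but its count ratio was nearer to 1, at 0.758 (0.730 to 0.787).

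The 3 enzymes between mevalonate and isopentenyl diphosphate held both the lowest ratio and the one ratio above 1. MVK, mevalonate kinase (chromosome 12, 109573255 to 109598125, plus strand), was at 19.95 FPKM under DMSO and 11.68 FPKM under FIN56, a log2 ratio of -0.77. Its count ratio was 0.587 (0.547 to 0.629). PMVK, phosphomevalonate kinase, carries out the next phosphorylation (chromosome 1, 154924740 to 154936719, minus strand). It was at 15.13 FPKM under DMSO and 21.38 FPKM under FIN56, so here the FIN56 library was the higher one. The count ratio of PMVK was 1.41 (1.301 to 1.54), from 959 and 1411 counts. MVD, the decarboxylase that follows PMVK (chromosome 16, 88651935 to 88663161, minus strand), was at 12.66 and 7.27 FPKM, a log2 ratio of -0.80. From 1323 and 753 counts, its count ratio was 0.547 (0.499 to 0.598). The PMVK to MVD ratio of TPM was therefore 1.19 under DMSO and 2.94 under FIN56, and the PMVK to MVK ratio was 0.758 and 1.83.

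Prenyl diphosphates are made by IDI1, FDPS and GGPS1. IDI1, the isomerase that turns isopentenyl diphosphate into dimethylallyl diphosphate (chromosome 10, 1039152 to 1049119, minus strand), was at 44.1 FPKM under DMSO and 25.53 FPKM under FIN56. Its log2 ratio of -0.79 was close to those of MVK and MVD, and its count ratio was 0.582 (0.559 to 0.605). FDPS, farnesyl diphosphate synthase and the target of nitrogen-containing bisphosphonates (chromosome 1, 155308748 to 155320666, plus strand), was at 131.97 and 93.0 FPKM. It was the most abundant of the 9 in both libraries, and its FPKM ratio was 0.705. GGPS1, the geranylgeranyl diphosphate synthase (chromosome 1, 235327350 to 235344532, plus strand), was at 21.91 and 17.36 FPKM. Its FPKM ratio of 0.792 and its count ratio of 0.837 (0.786 to 0.891) were nearest to 1 among the 8 lower genes.

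FDFT1, squalene synthase, takes farnesyl diphosphate into the sterol branch. It was at 87.92 FPKM under DMSO and 59.94 FPKM under FIN56, from 9916 and 7009 counts. The FIN56 library was lower at a ratio of 0.682, and the count ratio was 0.679 (0.659 to 0.700). FDPS had a count ratio of 0.680 (0.658 to 0.702), so the count ratios of the 2 genes differed by less than counting error.

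The counting interval lay below 1 for 8 of the 9 enzymes and above 1 for PMVK. At this depth that is common, since 35.9% of the genes of at least 1 FPKM had an interval below 1 and 38.0% had one above 1. Set in order of count ratio, neighbouring enzymes had overlapping intervals except FDPS and HMGCS1, and GGPS1 and PMVK. Among the genes of at least 1 FPKM, 2.93% had a lower FPKM ratio than MVD and 16.3% a lower one than GGPS1, while 93.9% had a lower one than PMVK.

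**Figure D3:**
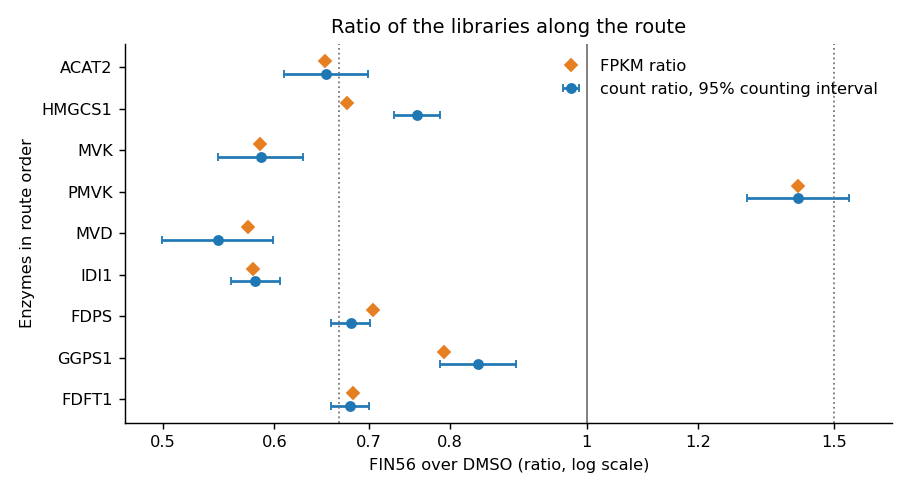
Ratio of FIN56 over DMSO (log axis) for each enzyme in route order, from FPKM and from counts with the exact 95% counting interval, with dotted lines at the 1.5-fold thresholds. MVD is lowest at 0.574 by FPKM and PMVK is highest at 1.41.

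**Figure D4:**
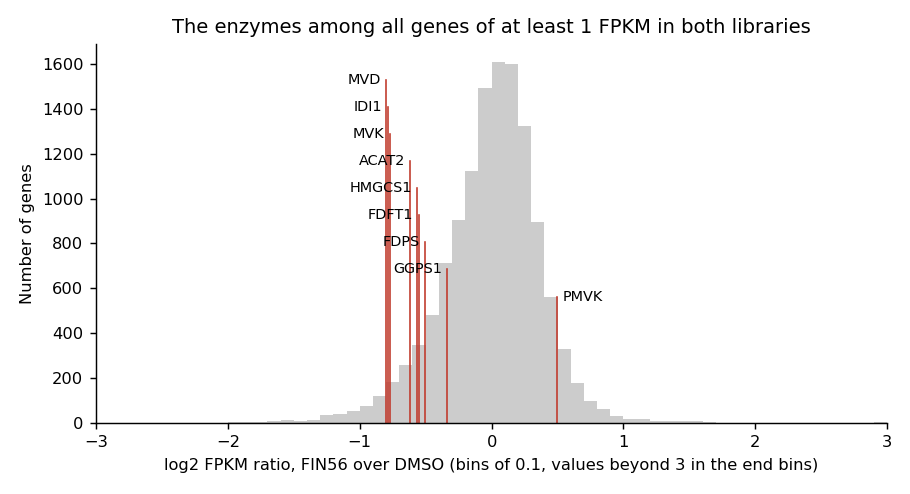
Distribution of the log2 FPKM ratio over the 12638 genes of at least 1 FPKM in both libraries, with the 9 enzymes marked. The enzymes lie to the left of the centre except PMVK.

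Levels between genes were compared on the TPM scale. In the DMSO library FDPS (197.37 TPM) and FDFT1 (131.49 TPM) led, followed by IDI1 (65.95 TPM) and HMGCS1 (51.07 TPM). GGPS1, ACAT2 and MVK then followed at 32.76, 30.69 and 29.84 TPM, where neighbouring counting intervals overlapped, before PMVK at 22.62 and MVD at 18.94 TPM. In the FIN56 library the top 4 kept this order, at 142.16, 91.63, 39.02 and 35.28 TPM. PMVK stood next at 32.68 TPM, within the counting error of HMGCS1, so that it was at place 5 in place of 8. MVD was lowest in both libraries. FDPS and FDFT1 together made up 56.6% of the summed TPM of the 9 under DMSO and 56.1% under FIN56.

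For some enzymes the FPKM and count ratios differed. The effective transcript length that FPKM divides by was calculated back from the counts and FPKM. Its ratio between the libraries therefore restates this difference and is no separate measurement. For HMGCS1 the FIN56 length was 1.12 times the DMSO length, above the 1.09 that marked the 95th percentile of genes of at least 1 FPKM. For GGPS1 it was 1.06 times, and for MVD and FDPS it was 0.952 and 0.964 times. Which transcripts gave this difference was not examined. Counts were whole numbers in both libraries for 4 enzymes (HMGCS1, PMVK, MVD and FDFT1).

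The genes around the route were taken from lists chosen with earlier results of these data known. In acetyl-CoA supply, 2 of 3 genes were lower by 1.5-fold and 0 higher, against 6.77% and 3.87% of the genes of at least 1 FPKM. The median log2 ratio of this list was -0.61 by FPKM and -0.82 on counts scaled by library totals. SLC25A1, the mitochondrial citrate carrier, was at 53.34 and 30.49 FPKM, ACSS2, which makes acetyl-CoA from acetate, at 12.1 and 7.91, and ACLY, which cleaves citrate, at 45.8 and 42.64. Of 7 genes that handle acetoacetyl-CoA, HMG-CoA or isopentenyl diphosphate outside the route, 3 were listed at 0 in both libraries, and of the other 4, 1 was lower (6.77%) and 0 higher. That gene was AACS, which activates acetoacetate in the cytosol, at 14.2 and 8.03 FPKM. ACAT1, the mitochondrial thiolase, was at 31.08 and 21.69 FPKM, and OXCT1, of ketone body use, at 30.47 and 34.54.

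The lists for the branches that leave the route are given side by side, and differences between them were not tested. Of 12 enzymes from squalene to cholesterol, 10 had a ratio below 1 (46.1% of the genes of at least 1 FPKM), 3 were lower by 1.5-fold (6.77%) and 0 higher (3.87%). Their median log2 ratio was -0.40, and -0.15 over the 7 with whole counts. The 3 were LSS, lanosterol synthase (14.63 and 7.33 FPKM), DHCR7, the last reductase of one sterol branch (42.92 and 24.74 FPKM), and MSMO1, a sterol demethylation enzyme (55.74 and 33.61 FPKM). Of 11 genes of protein prenylation, 8 had a ratio above 1, against 53.5% of the genes of at least 1 FPKM, and the median log2 ratio was 0.20. ZMPSTE24, the prelamin A protease, was at 39.68 and 57.79 FPKM, RCE1, the protease of prenylated CAAX proteins, at 24.43 and 31.97, and CHML, a Rab escort protein, at 10.63 and 6.44. CHML was the one gene of the 11 past the threshold, on the lower side (6.77% of the genes of at least 1 FPKM), and 0 were higher (3.87%).

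Dolichol synthesis had 4 of 5 genes above 1, against the same 53.5%, with a median log2 ratio of 0.23. None was lower by 1.5-fold (6.77% of the genes of at least 1 FPKM) or higher (3.87%). SRD5A3, the polyprenal pathway reductase, was at 10.1 and 13.34 FPKM, DOLK, dolichol kinase, at 11.01 and 13.96, and DOLPP1, which recycles dolichyl diphosphate, at 19.94 and 23.34. Among 5 genes that make prenyl chains for other acceptors or attach them, 1 was lower (6.77% of the genes of at least 1 FPKM), 0 were higher and the median log2 ratio was 0.07. That median has no settled sign, being 0.20 with median-of-ratios scaling and -0.15 over the 3 genes with whole counts. The lower gene was COQ2, the prenyltransferase of coenzyme Q synthesis, at 13.02 and 7.12 FPKM. TRIT1, which prenylates tRNA, was at 15.37 and 22.0 FPKM, and PDSS2, a subunit of the enzyme that makes the coenzyme Q side chain, at 6.15 and 5.55.

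The SREBP control genes were mixed, with 4 of 7 below 1 (46.1% of the genes of at least 1 FPKM) and a median log2 ratio of -0.14. The 3 past the lower threshold (6.77%) were INSIG1, which retains SREBP precursors in the endoplasmic reticulum and is itself an SREBP target, and both SREBP genes. INSIG1 was at 16.86 and 3.85 FPKM, SREBF1 at 34.84 and 13.42, and SREBF2 at 34.87 and 22.84. No gene of the 7 was higher by 1.5-fold (3.87% of the genes of at least 1 FPKM). The count ratio of SREBF2 was 0.726 (0.704 to 0.749), which does not reach the threshold. The same difference, written as effective length, was 1.11 times under FIN56 that under DMSO.

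**Figure D5:**
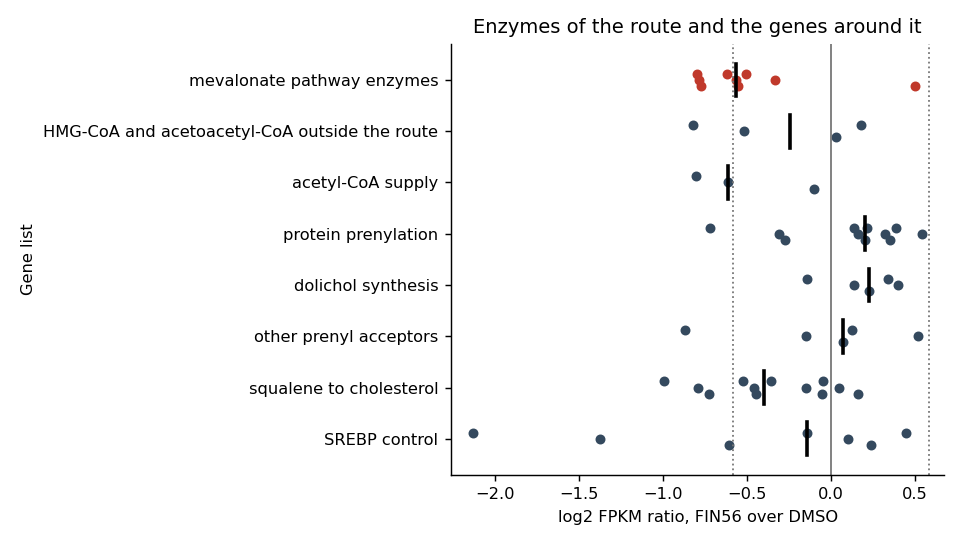
Log2 FPKM ratio of FIN56 over DMSO for each gene of the 9 enzymes and of the lists around them, with the median of each list as a bar and dotted lines at the 1.5-fold thresholds. The medians of acetyl-CoA supply (-0.61) and of squalene to cholesterol (-0.40) lie below 0, and those of protein prenylation (0.20) and dolichol synthesis (0.23) above it.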

How the data were processed

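Gene expression was measured in 2 RNA libraries of HSC-3 cells. Per the labels and the methods, the authors checked reads with FastQC 0.11.7, aligned them to GRCh38 with STAR 2.6.1a and quantified genes with RSEM 1.3.1, which deposited expected counts, FPKM and TPM per gene; the methods state these steps for tumour samples. The deposited log2 values are rlog values that the authors made with DESeq2 1.26.0. Whether counting used strand is not given in the sources used here, but the expected counts show reads divided between overlapping genes on opposite strands.

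The FIN56 over DMSO ratio of FPKM was the main measure, with thresholds of 1.5 and 1/1.5. Expected counts were rounded, scaled by library totals and given exact Clopper-Pearson 95% intervals. TPM, rlog, TMM (edgeR 4.0.16) and median-of-ratios scaling (DESeq2 1.42.0), pseudocounts of 0.1 and 1 FPKM, totals without mitochondrial genes, genes with whole counts only, and a threshold of 2 were alternatives. Centring for GC content and transcript length was added after seeing the data. Scripts (Python 3.11.15, R 4.3.3) were tested on simulated data. Gene positions are from GENCODE release 44 and start windows from RefSeq.

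The members and lists were chosen with earlier results of these data known, and 1 listed gene is not reported here and was left out of its list. Named beside the 9 enzymes are, from each list, the 3 genes with the largest absolute log2 FPKM ratio among those of at least 100 expected counts over both libraries, and any past 1.5-fold at that depth. The markers of other cell types are all named, whatever their depth. Neighbouring genes were named after their values were seen.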

Additional observations from a re-analysis of the deposited data

How the results depend on the processing

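No paired analysis was possible because a single culture stands for either treatment, which also leaves no replicate to leave out. The median log2 ratio of the 9 enzymes (-0.57) lay between -0.52 and -0.64 under the other scalings, pseudocounts, TPM and centring, and was -0.22 with rlog values, which are shrunken by construction when 2 libraries are all there is. The 4 lower enzymes became 0 with a threshold of 2-fold, 0 on the rlog scale and 1 of 4 when only genes with whole counts were kept, which leaves fewer genes. There were 3 with median-of-ratios scaling and 3 with a pseudocount of 1 FPKM, where ACAT2 was not past the threshold (-0.58 in both). Centring for GC content and transcript length, chosen after seeing the data, gave 5 lower enzymes, HMGCS1 added at -0.68, and 1 higher, PMVK at 0.61; the cause was not tested. Among the surrounding lists, the median of other prenyl acceptors ran from -0.15 to 0.20 and that of genes outside the route from -0.40 to 0.00 without rlog, and the other lists kept their sign. Of 81 values of single enzymes under the alternatives, 22 moved and 0 changed sign. The depth, 753 counts or more per enzyme, sets the counting intervals, but the spread between cultures was not measured.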

Other observations

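Several enzyme genes share their locus with another gene, and these neighbours were looked up after the values were seen. MMAB, which makes the cobalamin cofactor of methylmalonyl-CoA mutase, starts 290 bases from MVK on the opposite strand and overlaps it by 326 bases. It was at 26.68 FPKM under DMSO and 16.58 FPKM under FIN56. Its count ratio of 0.580 (exact 95% counting interval 0.539 to 0.624) overlapped that of MVK at 0.587. The expected counts of MVK (2147.26 and 1311.27) and MMAB (1917.74 and 1157.73) add up to a whole number in each library. Reads were thus divided between the pair, and the ratios are not fully separate measurements. ARID4B, a chromatin gene that starts 391 bases from GGPS1 on the opposite strand, was at 9.09 and 10.68 FPKM, and TCP1, a chaperonin subunit gene that overlaps ACAT2 by 615 bases on the opposite strand, was at 178.37 and 205.7 FPKM. For those pairs the enzyme was lower under FIN56 and the neighbour was not.

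AL357556.3 lies on the same strand as GGPS1 and overlaps it by 15963 bases, so reads of the shared stretch had to be divided between them. It held 1367.5 expected counts under DMSO and 945.2 under FIN56. Both genes together held 3499.6 and 2803.31 counts, a ratio of 0.770 (0.732 to 0.809), lower than the 0.837 of GGPS1 alone. IDI2-AS1 overlaps IDI1 by 6274 bases on the opposite strand and was at 1.14 and 0.45 FPKM. The expected counts of IDI1 and IDI2-AS1 were fractional, 6552.53 and 157.47 under DMSO and 3967.31 and 64.69 under FIN56. In each library they add up to a whole number. Reads were thus divided between genes on opposite strands, and reads of the shared stretch cannot be told apart. The 8 FDPS pseudogenes listed held 0.387% and 0.366% of the counts of FDPS. RUSC1-AS1, which overlaps FDPS by 3804 bases on the opposite strand, held more, 550.97 and 492.65 expected counts. Its count ratio was 0.859 (0.760 to 0.972). The expected counts of FDPS and RUSC1-AS1 also add up to a whole number in each library.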
